A study of Mus musculus with 16 samples.

Results

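Mesenchymal progenitors, fibroblasts, mural cells and endothelial cells of muscle are sorted by surface proteins, and the messenger RNA of 6 such proteins is described here: the platelet-derived growth factor (PDGF) receptors Pdgfra and Pdgfrb, the Thy-1 antigen gene Thy1, and the lymphocyte antigen 6 genes Ly6a, Ly6c1 and Ly6e. They were chosen by name, all 6 were among the 11710 genes of the count table, and all 6 passed the filter on low counts. RNA sequencing measured mouse rotator cuff muscle in 4 groups of 4 samples: C57BL/6J (BL6) unoperated, BL6 operated, MRL/MpJ (MRL) unoperated and MRL operated. The operation removed the tendon and denervated the muscle, and unoperated controls had neither. BL6 is a widely used inbred strain, and MRL is an inbred strain noted for regrowth of ear punch wounds. The comparison asks whether their muscles respond differently to a rotator cuff tear. The series text names the infraspinatus and the sample labels the supraspinatus. Ages and the time after surgery were not given in the sources used here, nor was it stated that replicates came from separate animals, so p-values measure only the spread between these samples.

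PDGF receptors are tyrosine kinases that dimerise when a PDGF ligand binds. In skeletal muscle Pdgfra marks fibro-adipogenic progenitors, interstitial cells that can become fibroblasts or adipocytes, and Pdgfrb marks pericytes and other mural cells of small vessels as well as some fibroblasts. Thy1 (CD90), Ly6a (Sca-1), Ly6c1 (one of the genes behind the Ly-6C antigen) and Ly6e are small glycoproteins held in the membrane by a glycosylphosphatidylinositol (GPI) anchor. Thy1 is found on fibroblasts, neurons and mouse T cells. Ly6a is found on muscle mesenchymal progenitors and on capillary endothelium, Ly6c1 is abundant in endothelium, and Ly6e is broadly expressed; all of these Ly6 genes can be induced by interferon.

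The Ly6 genes lie together on chromosome 15 and resemble each other, which bears on how far their counts can be told apart. The first 90 coding bases are shown because they display this likeness, with capitals marking each base that differs from Ly6c1 at the same position. They were read from the GENCODE M21 transcripts of GRCm38, 5′ to 3′ on the coding strand.
Ly6c1: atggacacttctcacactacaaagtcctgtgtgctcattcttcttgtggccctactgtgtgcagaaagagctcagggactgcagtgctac
Ly6c2: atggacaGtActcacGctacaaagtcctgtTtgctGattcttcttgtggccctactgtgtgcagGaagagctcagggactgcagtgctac
Ly6a: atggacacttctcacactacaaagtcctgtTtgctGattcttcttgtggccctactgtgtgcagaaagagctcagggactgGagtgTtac
Ly6e: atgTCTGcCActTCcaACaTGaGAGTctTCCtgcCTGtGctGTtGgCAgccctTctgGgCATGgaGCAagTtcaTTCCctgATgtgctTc
Of these 90 bases, Ly6a shared 86 with Ly6c1, Ly6c2 shared 84 and Ly6e shared 45. Over the aligned coding sequence, Ly6c1 was 97.71% identical to Ly6c2, a neighbouring gene not analysed here, 83.72% to Ly6a and 52.62% to Ly6e. Of the 50-base windows along their transcripts, 32.77% for Ly6c1 and 18.97% for Ly6a also occurred in another gene, among them Ly6c2 and Ly6i, as did 4.929% for Pdgfra; none did for Ly6e, Thy1 or Pdgfrb. The counts of Ly6a and Ly6c1 are therefore uncertain in how reads were split. Ly6 alleles also differ among inbred strains and the reference genome is that of BL6, so a strain difference in RNA and a difference in how reads match the reference cannot be told apart for these genes.

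Total counts ran from 24323862 to 43552964 per sample. In BL6 the highest operated total, 31094642, was under the lowest unoperated total, 33679319. Mitochondrially encoded genes took 11.0% to 14.2% of counts in unoperated samples and 11.8% to 24.9% in operated ones. The tissue label was checked with 10 myofiber genes, among them Ckm and Acta1, which summed to 118953 to 175133 counts per 1000000 counts (CPM) in unoperated samples and 51653 to 149554 CPM in operated ones. Replicate 4 of operated BL6 and replicate 4 of operated MRL stood apart in several of the genes below, and several results that turn on them are given with and without them. In bulk RNA, more cells of a type, more RNA per cell and a smaller share of RNA from myofibers cannot be told apart. The median sum of the 10 myofiber genes was 157490 CPM in unoperated and 87514 CPM in operated BL6, and 120959 and 80198 CPM in MRL. Its part in the results below was not tested.

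Pdgfrb rose after surgery in both strains, the Ly6 genes rose in both strains, Thy1 was called in BL6 and not in MRL, and Pdgfra was not called in either. A gene was called when edgeR's quasi-likelihood test gave a Benjamini-Hochberg adjusted p under 0.05 over all 11709 genes tested. By this rule 5 of 6 genes were higher after surgery in BL6, where 35.1% of all genes tested were called higher and 67.9% in either direction. In MRL 4 of 6 were higher, where 22.3% of all genes were called higher and 45% in either direction. The median log2 fold change of the 6 genes was 1.41 in BL6 and 0.93 in MRL, beside 0.04 and 0.01 over all genes tested. Every operated sample lay above every unoperated one for 4 of the 6 genes in BL6, as it did for 27.5% of all genes, and for 2 of the 6 in MRL, as it did for 17% of all genes.

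**Figure D1:**
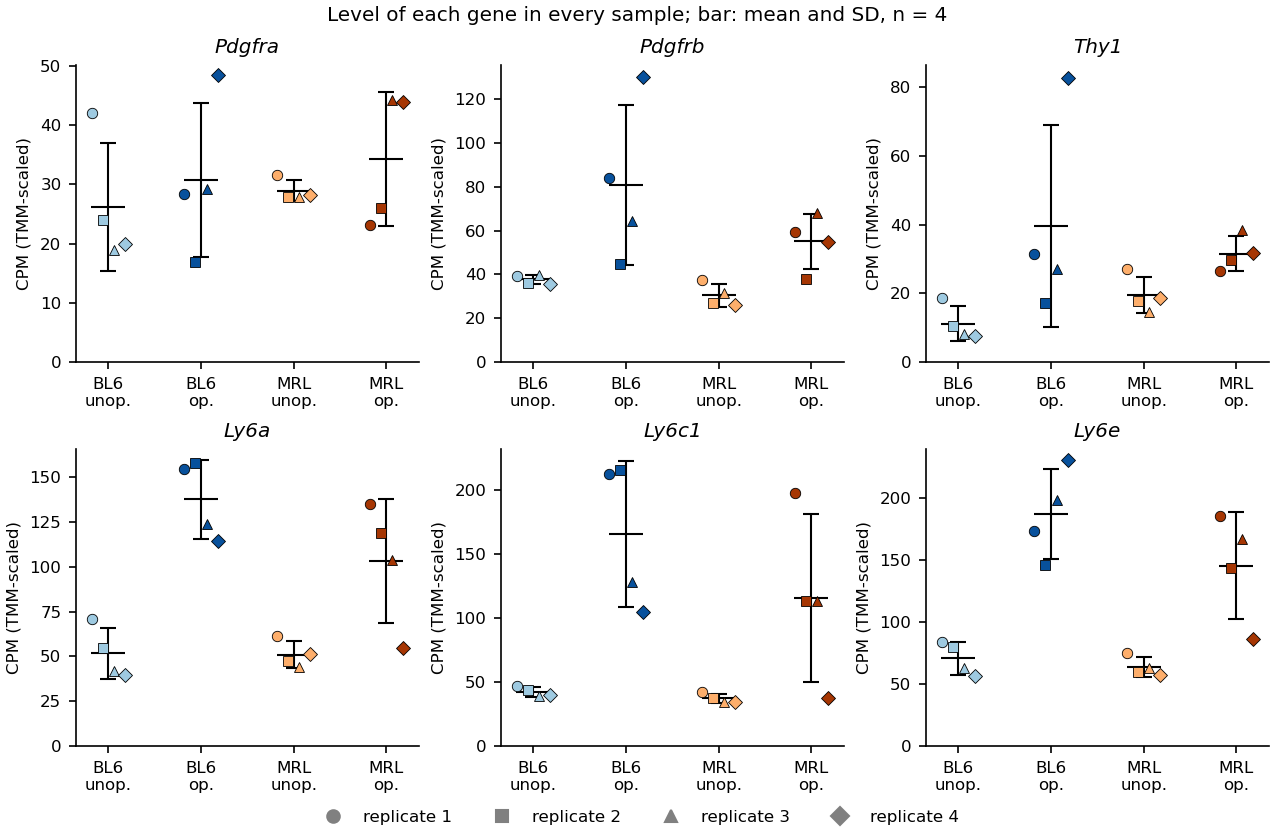
TMM-scaled CPM of the 6 genes in each of the 16 samples, grouped by strain and surgery, with the mean and SD of each group of 4. Ly6e and Pdgfrb were higher in every operated than in every unoperated sample of the same strain, and Pdgfra overlapped in both strains.

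Pdgfra (ENSMUSG00000029231; GRCm38 chromosome 5, 75152292 to 75198215, plus strand) encodes the receptor that binds PDGF-A as well as PDGF-B and PDGF-C chains. Unoperated BL6 replicates 1 to 4 held 42.1, 23.9, 18.9 and 19.9 CPM, and operated BL6 replicates 28.4, 17.0, 29.2 and 48.5 CPM. Unoperated MRL replicates held 31.5, 27.8, 27.9 and 28.3 CPM, and operated MRL replicates 23.2, 26.0, 44.2 and 43.9 CPM. The operated samples spread on both sides of the unoperated ones in either strain, so the groups overlapped. The log2 fold change with surgery was 0.23 in BL6 (SE 0.30, adjusted p = 0.505) and its 95% interval ran from -0.43 to 0.89. In MRL it was 0.25 (SE 0.30, adjusted p = 0.510), with an interval of -0.41 to 0.91. Without replicate 4 of operated BL6 the BL6 value turned to -0.08.

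Pdgfrb (ENSMUSG00000024620; chromosome 18, 61045150 to 61085061, plus strand) encodes the receptor that binds PDGF-B and PDGF-D. In BL6 the unoperated replicates held 39.2, 36.1, 39.9 and 35.4 CPM and the operated ones 84.0, 44.5, 64.5 and 130.1 CPM. In MRL the unoperated replicates held 37.3, 26.8, 31.5 and 26.2 CPM and the operated ones 59.3, 38.0, 68.0 and 54.8 CPM. Operated and unoperated samples did not overlap in either strain, although in MRL the lowest operated and highest unoperated sample were close. The log2 fold change was 1.10 in BL6 (SE 0.25, adjusted p = 0.00142), a fold of 2.15. In MRL it was 0.85 (SE 0.25, adjusted p = 0.0139), a fold of 1.81. Without replicate 4 of operated BL6 the BL6 value was 0.77 and still called, and without replicate 3 of operated MRL the MRL value was 0.74 with an adjusted p of 0.0503.

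Thy1 (ENSMUSG00000032011; chromosome 9, 44043384 to 44048579, plus strand) had, relative to its mean, the widest spread of the 6 genes among operated BL6 samples. Unoperated BL6 replicates held 18.6, 10.5, 8.06 and 7.50 CPM, and operated ones 31.6, 17.1, 27.0 and 82.5 CPM. Unoperated MRL replicates held 27.1, 17.8, 14.5 and 18.7 CPM, and operated ones 26.3, 29.8, 38.4 and 31.7 CPM. Operated BL6 replicate 2 lay under the highest unoperated BL6 sample, and operated MRL replicate 1 lay just under the highest unoperated MRL sample. The log2 fold change in BL6 was 1.83 (SE 0.40, adjusted p = 0.00109), a fold of 3.55. Without operated BL6 replicate 4 it was 1.17 and still called. In MRL the log2 fold change was 0.69 (SE 0.39, adjusted p = 0.157), with an interval of -0.16 to 1.55. A fit to the MRL samples alone gave 0.70 with an adjusted p of 0.0175, which called it.

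Ly6a (ENSMUSG00000075602; chromosome 15, 74994877 to 74998031, minus strand) held 70.7, 54.5, 41.8 and 39.6 CPM in unoperated BL6 and 154.6, 158.0, 123.8 and 114.1 CPM in operated BL6. In MRL it held 61.3, 47.5, 43.8 and 51.4 CPM unoperated and 134.8, 119.0, 104.0 and 54.8 CPM operated. The BL6 groups did not overlap, and in MRL operated replicate 4 lay among the unoperated samples. The log2 fold change was 1.41 in BL6 (SE 0.24, adjusted p = 0.000169) and 1.02 in MRL (SE 0.24, adjusted p = 0.00499), which are folds of 2.67 and 2.02. Without operated MRL replicate 4 the MRL value was 1.22.

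Ly6c1 (ENSMUSG00000079018; chromosome 15, 75044018 to 75048830, minus strand) had the largest log2 fold change of the 6 genes in MRL, and in BL6 it and Thy1 were close. In BL6 Thy1 was the larger with library totals (2.07 against 2.04) and without unoperated replicate 1 (2.20 against 2.02), operated replicate 1 (1.92 against 1.82) or operated replicate 2 (2.08 against 1.81). In BL6 it held 47.0, 43.5, 38.9 and 39.9 CPM unoperated and 213, 216, 129 and 105 CPM operated. In MRL it held 42.2, 37.2, 34.4 and 34.7 CPM unoperated and 198, 114, 113 and 37.4 CPM operated. All operated samples but MRL replicate 4 were far above the unoperated ones, and that sample lay among them. The log2 fold change was 1.97 in BL6 (SE 0.35, adjusted p = 0.000239) and 1.64 in MRL (SE 0.35, adjusted p = 0.00310), which are folds of 3.91 and 3.11. On leaving out each sample in turn the MRL value ran from 1.24, without operated replicate 1, to 1.93, without operated replicate 4, and stayed called.

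Ly6e (ENSMUSG00000022587; chromosome 15, 74955051 to 74959905, plus strand) rose with the smallest SE of the 6 genes. It held 83.9, 79.4, 62.4 and 56.3 CPM in unoperated BL6 and 173, 146, 199 and 231 CPM in operated BL6. In MRL it held 75.3, 59.3, 62.5 and 57.2 CPM unoperated and 186, 143, 167 and 85.9 CPM operated. The groups did not overlap in either strain, and MRL replicate 4 was again the lowest operated sample. The log2 fold change was 1.41 in BL6 (SE 0.21, adjusted p = 7.06e-05) and 1.19 in MRL (SE 0.21, adjusted p = 0.00130), which are folds of 2.65 and 2.29.

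A difference between the strains in the response to surgery was called for 0 of the 6 genes by the interaction test of edgeR's quasi-likelihood fit, which called 0.248% of all genes tested. The count was also 0 at an unadjusted p under 0.05, and 0 with DESeq2's Wald test and with limma voom. The interaction nearest to the threshold was that of Thy1, a log2 value of -1.14 for MRL minus BL6 (SE 0.56, unadjusted p = 0.0583, adjusted p = 0.328), with an interval of -2.35 to 0.08. Without operated BL6 replicate 4, the sample with 82.5 CPM, it was -0.48. The intervals of the other interactions reached -0.92 to 0.95 for Pdgfra, -1.02 to 0.52 for Pdgfrb, -1.13 to 0.34 for Ly6a, -1.39 to 0.73 for Ly6c1 and -0.86 to 0.43 for Ly6e.

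**Figure D2:**
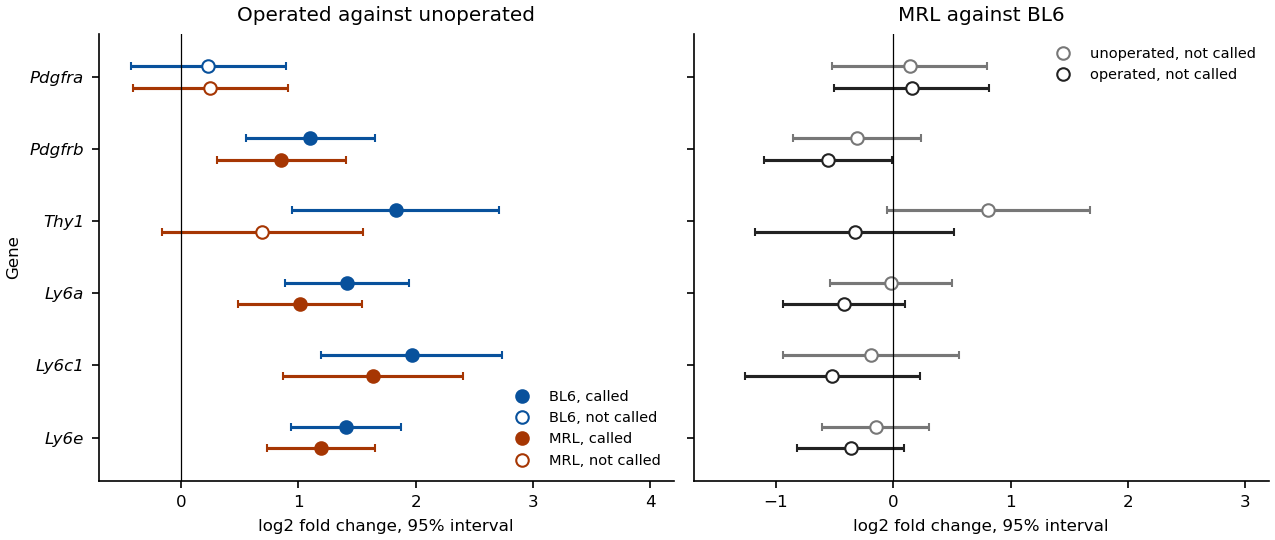
Log2 fold changes of the 6 genes with approximate 95% intervals, operated against unoperated in each strain (left) and MRL against BL6 at each surgery state (right), filled where called. Ly6c1 stood at 1.97 in BL6 and 1.64 in MRL with surgery, and no strain difference was called.

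The strains were also compared directly. Among unoperated samples 0 of 6 genes were called with edgeR's quasi-likelihood test, where 10.4% of all genes were called, and 0 had an unadjusted p under 0.05. Thy1 came nearest, with a log2 fold change of 0.81 for MRL against BL6 (SE 0.40, adjusted p = 0.228) and an interval of -0.06 to 1.67. For Ly6a the value was -0.02 with an interval of -0.54 to 0.50, and its sign turned when counts were scaled to library totals. Among operated samples 0 of 6 were called, where 12.9% of all genes were called, and 1 had an unadjusted p under 0.05. That gene was Pdgfrb, at -0.56 (adjusted p = 0.167, interval -1.10 to -0.01), and without operated BL6 replicate 2 it was called at -0.76 (adjusted p = 0.0283). DESeq2 and limma voom called 0 of 6 in both comparisons. Scaling to library totals raised the share of called genes that were higher in MRL from 48.4% to 70.3% among unoperated samples and from 59.1% to 72.2% among operated ones.

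Per kilobase of exon, the Ly6 genes were the most abundant of the 6 in every group mean. In unoperated BL6 the mean level was 42.8 CPM per kilobase for Ly6a, 25.2 for Ly6c1, 18.6 for Ly6e, 6.88 for Pdgfrb, 3.73 for Thy1 and 2.62 for Pdgfra, and only the ranges of Thy1 and Pdgfra overlapped between neighbours. In unoperated MRL the order of the first 3 was the same, at 42.3, 22.2 and 16.8 CPM per kilobase. Thy1 at 6.52 and Pdgfrb at 5.56 followed there with overlapping ranges, and Pdgfra was lowest at 2.88. In operated BL6 the means were 114 for Ly6a and 98.7 for Ly6c1, whose ranges overlapped, 49.4 for Ly6e, 14.7 for Pdgfrb and 13.2 for Thy1, which overlapped too, and 3.07 for Pdgfra. In operated MRL the means were 85.6, 68.9 and 38.4 CPM per kilobase for Ly6a, Ly6c1 and Ly6e, with overlapping ranges, then Thy1 at 10.5 and Pdgfrb at 10.04, which overlapped, and Pdgfra at 3.42.

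Among the PDGF ligands and cofactors, 5 of 7 measured genes rose in BL6 and 0 fell, and 3 rose and 1 fell in MRL. Beside these counts and those of the lists below, 35.1% of all genes tested were called higher in BL6 and 22.3% in MRL. The list's median log2 fold change was 1.04 in BL6 and 0.46 in MRL. Pdgfb, a ligand of both receptors that endothelium uses to recruit pericytes, went from 25.0 ± 3.99 to 57.0 ± 7.37 CPM in BL6 (SD, n = 4). The MRL means were 26.3 ± 4.34 CPM unoperated and 36.3 ± 7.59 CPM operated, where replicate 4 was lowest at 25.4 CPM. Its log2 fold change was 1.19 in BL6 (adjusted p = 4.27e-05) and 0.46 in MRL (adjusted p = 0.0337), and the interaction of -0.72 was not called (adjusted p = 0.188). Among operated samples Pdgfb was lower in MRL, with a log2 fold change of -0.65 (adjusted p = 0.0156) and no overlap between the strains. Pdgfd, a ligand of the beta receptor, rose by 1.43 in BL6 (adjusted p = 0.000352) and 1.42 in MRL (adjusted p = 0.00182) on the log2 scale. Pdgfa, which acts through the alpha receptor, fell by 0.51 in MRL (adjusted p = 0.0146), and its BL6 value of -0.33 had an adjusted p of 0.0652. Sparc, a matrix glycoprotein that binds PDGF-B, rose by 2.16 in BL6 (adjusted p = 0.000299) and 1.34 in MRL (adjusted p = 0.0130), and operated BL6 replicate 4 held 3044 CPM against 773 to 1054 CPM in the other operated BL6 samples. Plat, the protease that activates PDGF-C, rose by 1.04 in BL6 (adjusted p = 0.0106) and had a value of 0.55 in MRL (adjusted p = 0.178). Lrp1, a co-receptor of the beta receptor, rose by 0.77 in BL6 (adjusted p = 0.0490) and was at 0.43 in MRL (adjusted p = 0.293), and Nrp1 was at 0.02 and -0.07. The BL6 count of 5 was 3 without operated BL6 replicate 4, and 1 gene fell in BL6 without unoperated BL6 replicate 4. The call of 1 lower gene in MRL, Pdgfa, was lost without unoperated MRL replicate 4, which held 41.8 CPM of it against 23.6 to 29.2 CPM in the other unoperated MRL samples. Pdgfc was not analysed here.

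Downstream of the receptors, 5 of 28 signaling genes rose and 13 fell in BL6, and 5 rose and 9 fell in MRL, with medians of -0.18 and -0.10. Not called were 10 of 28 in BL6 and 14 of 28 in MRL. Over all genes tested, 67.9% in BL6 and 45% in MRL were called in either direction, so the list was near that share. With counts scaled to library totals 8 fell in BL6. Fyn, a Src-family kinase that binds the activated receptors, rose by 1.45 in BL6 (adjusted p = 6.86e-05) and 0.88 in MRL (adjusted p = 0.00568). Mapk3, a MAP kinase downstream of Ras and Raf, rose by 1.32 in BL6 (adjusted p = 9.65e-05) and 0.96 in MRL (adjusted p = 0.00330). Ptpn11, the phosphatase SHP2 that docks on the receptors, fell by 1.10 in BL6 (adjusted p = 0.000260) and 0.71 in MRL (adjusted p = 0.0107).

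Of the wider Ly6 and urokinase receptor family, 6 of 35 listed genes were measured, and 4 rose and 1 fell in BL6, while 1 rose and 1 fell in MRL. In MRL 2 rose without unoperated replicate 1 or without operated replicate 4, and 0 fell without operated replicate 3. Gpihbp1, which carries lipoprotein lipase to the capillary surface, rose by 1.87 in BL6 (adjusted p = 7.22e-05) and 1.61 in MRL (adjusted p = 0.00124). It repeated the low value of operated MRL replicate 4, at 44.1 CPM against 123 to 166 CPM in the other operated MRL samples. Lynx1, a modulator of nicotinic acetylcholine receptors, fell by 1.42 in BL6 (adjusted p = 0.000341) and 0.90 in MRL (adjusted p = 0.0140), and operated MRL replicate 4 was its highest operated sample at 227 CPM. Plaur, the urokinase receptor, went from 0.796 ± 0.269 to 3.22 ± 1.09 CPM in BL6 (SD, n = 4; log2 fold change 2.02, adjusted p = 0.000160). In MRL Plaur went from 1.07 ± 0.266 to 1.45 ± 0.485 CPM (log2 fold change 0.43, adjusted p = 0.303), and its interaction of -1.58 was not called (adjusted p = 0.173). Lypd2, a low-abundance family member, rose by 2.06 in BL6 (adjusted p = 0.00184) and was at 1.03 in MRL (adjusted p = 0.0918). The complement inhibitor Cd59a differed by strain: MRL was higher by 0.68 among unoperated samples (adjusted p = 0.00124) and by 0.55 among operated ones (adjusted p = 0.00634). Cd59b was likewise higher in MRL, by 0.98 (adjusted p = 0.000813) and 0.70 (adjusted p = 0.0109). Shared sequence was not checked for Cd59a and Cd59b. Here too, a strain difference in RNA and a difference in how reads match the BL6 reference cannot be told apart.

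Other surface antigens used to sort mesenchymal cells went the same way in most cases: 9 of 13 measured rose in BL6 and 8 in MRL, and none fell, with medians of 1.20 and 0.61. The MRL count was 4 without unoperated MRL replicate 2, 3 or 4 or without operated MRL replicate 3, and 1 gene fell in BL6 without operated BL6 replicate 4. Cd9, a tetraspanin, rose by 1.93 in BL6 (adjusted p = 1.27e-05) and 0.96 in MRL (adjusted p = 0.00307). Cd44, the hyaluronan receptor, rose by 1.54 (adjusted p = 0.000889) and 0.85 (adjusted p = 0.0437), and Itga5, a subunit of the fibronectin receptor, by 1.45 (adjusted p = 6.98e-05) and 0.89 (adjusted p = 0.00566). Ngfr, the low-affinity neurotrophin receptor, rose by 2.18 in BL6 (adjusted p = 0.00178) and was at -0.05 in MRL (adjusted p = 0.945), and its interaction of -2.23 was not called (adjusted p = 0.188). Its level was low, with BL6 means of 0.711 CPM unoperated and 3.26 CPM operated. Operated BL6 replicate 2, at 0.736 CPM, lay within the unoperated BL6 range of 0.240 to 1.11 CPM.

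**Figure D3:**
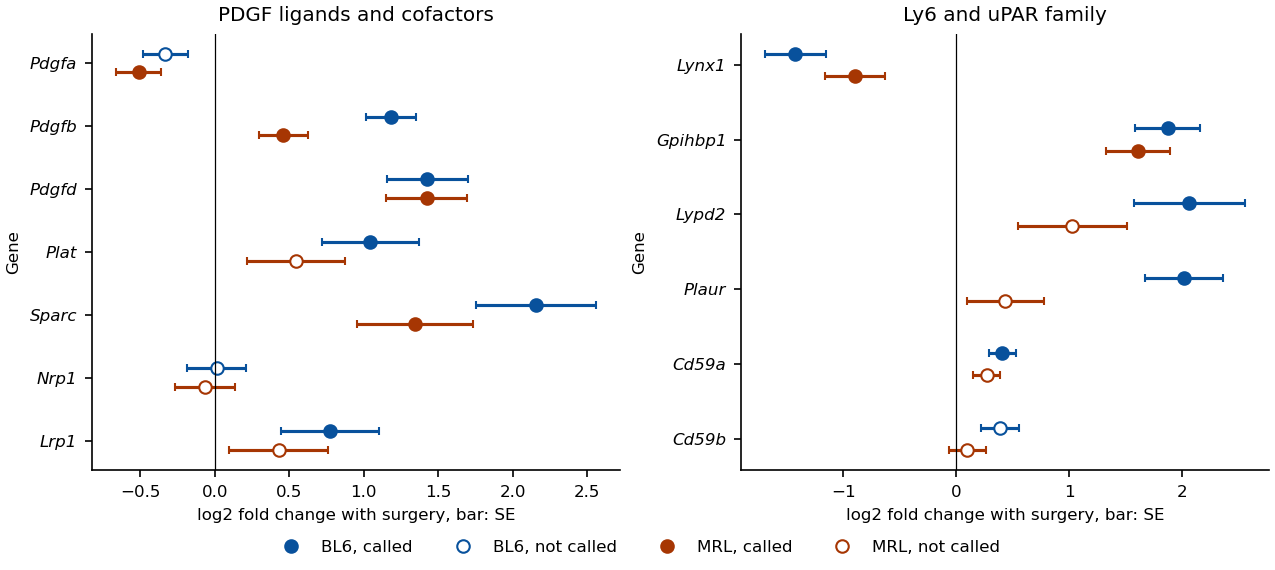
Log2 fold changes with surgery in BL6 and MRL for measured genes of the PDGF ligand and cofactor list and of the Ly6 and urokinase receptor family, with bars for the SE, filled where called. Pdgfd had nearly the same value in both strains, 1.43 and 1.42, and Plaur stood at 2.02 in BL6 and 0.43 in MRL.

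Marker lists of cell types that the muscle can hold are given beside the genes, and their part in the results was not tested. Their counts with surgery stand beside 35.1% of all genes tested called higher in BL6 and 22.3% in MRL. Endothelial markers rose in 10 of 12 cases in BL6 and 11 of 12 in MRL, with medians of 1.19 and 1.17, and none fell. Their summed level was 605 to 789 CPM in unoperated and 1273 to 1535 CPM in operated BL6. In MRL it was 465 to 639 CPM unoperated and 1525, 1259, 1371 and 626 CPM in operated replicates 1 to 4. The endothelial sum of operated MRL replicate 4 thus lay within the unoperated MRL range, as its Ly6a and Ly6c1 did. By the list's mean log2 CPM, the lowest operated MRL value, 5.49, was just above the highest unoperated one, 5.48. Single markers differed. In that replicate Cdh5 was 83.8 CPM against 46.3 to 75.9 CPM in unoperated MRL, and Flt1 was 55.0 CPM against 64.1 to 87.9 CPM. Pecam1, the platelet endothelial adhesion molecule, was 91.5 CPM there against 160 to 190 CPM in the other operated MRL samples. Egfl7, a secreted endothelial protein, rose by 1.97 in BL6 (adjusted p = 2.14e-05) and 1.60 in MRL (adjusted p = 0.000660), and Emcn (endomucin) by 1.82 (adjusted p = 0.000161) and 1.85 (adjusted p = 0.00101).

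Markers of fibro-adipogenic progenitors and fibroblasts rose in 9 of 15 cases in BL6 and 3 of 15 in MRL, with none lower and medians of 0.89 and 0.61. The BL6 count was 5 without operated BL6 replicate 4, and the MRL count was 1 without unoperated MRL replicate 3 and 0 without unoperated MRL replicate 4 or operated MRL replicate 3. A fit to the MRL groups alone called 8. Summed levels of the list overlapped between unoperated and operated samples, at 1356 to 2773 and 1618 to 4287 CPM in BL6 and 2332 to 3001 and 2167 to 3961 CPM in MRL. Gsn and Dcn made up most of these sums, with unoperated means of 974 and 406 CPM in BL6 and 1230 and 611 CPM in MRL. The highest sum, 4287 CPM, was in operated BL6 replicate 4, the sample with the highest Pdgfra, Pdgfrb and Thy1. Mfap5, a microfibril protein of progenitors around vessels and fascia, rose by 2.25 in BL6 (adjusted p = 0.000252) and was at 0.98 in MRL (adjusted p = 0.0545). Pi16, a marker of an adventitial fibroblast subset, rose by 1.55 in BL6 (adjusted p = 0.000758) and was at 0.35 in MRL (adjusted p = 0.377). Other markers of the list had lower means after surgery in both strains, though none was called lower. Mean Smoc2 went from 155 to 142 CPM in BL6 and from 196 to 170 CPM in MRL. Mean Dpp4 went from 2.26 to 1.88 CPM in BL6 and from 4.45 to 3.77 CPM in MRL.

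Pericyte and smooth muscle markers rose in 8 of 10 cases in BL6 and 7 of 10 in MRL, with 1 lower in each. The MRL count of 7 was 4 without unoperated MRL replicate 2, 3 or 4 or without operated MRL replicate 3. Their summed level was 789 to 860 CPM in unoperated and 967 to 1461 CPM in operated BL6, and 607 to 743 and 904 to 1422 CPM in MRL, so that neither strain's groups overlapped, as for Pdgfrb. Rgs5 had the highest mean of the list in every group, at 353 CPM unoperated and 618 CPM operated in BL6, and 267 and 593 CPM in MRL. The contractile genes Tagln and Acta2 rose by 2.49 (adjusted p = 2.56e-05) and 2.09 (adjusted p = 3.04e-05) in BL6 and by 1.44 (adjusted p = 0.00312) and 1.36 (adjusted p = 0.00232) in MRL. Higd1b, a pericyte marker, rose by 2.03 (adjusted p = 2.02e-05) and 1.84 (adjusted p = 0.000411). The gene that fell was Abcc9, a subunit of an ATP-sensitive potassium channel that muscle fibers also express, by 1.71 in BL6 (adjusted p = 1.93e-05) and 0.96 in MRL (adjusted p = 0.00292).

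Markers of adipocytes, tendon cells and Schwann cells also rose. Of 6 adipocyte markers 6 rose in each strain, with medians of 3.04 in BL6 and 2.67 in MRL. Their sums were 222 to 309 CPM in unoperated and 1298 to 2255 CPM in operated BL6, and 272 to 396 and 1383 to 2007 CPM in MRL. Fabp4 made up most of these sums, with operated means of 1319 CPM in BL6 and 1444 CPM in MRL. The sums did not rank samples as every marker did. Operated MRL replicate 4 had the lowest operated MRL sum, 1383 CPM, and the highest operated MRL Cfd, 281 CPM against 99.8 to 122 CPM. Cfd (adipsin) rose by 3.37 in BL6 (adjusted p = 0.000295) and 2.91 in MRL (adjusted p = 0.00287). Tenocyte markers rose in 5 of 5 cases in BL6 and 2 of 5 in MRL, with medians of 2.47 and 1.36, and the BL6 count was 5 without operated BL6 replicate 4 too. Without single MRL samples the MRL count ran from 0, without operated replicate 3, to 4, without unoperated replicate 1, and it was 1 without unoperated replicate 2, 3 or 4. The tenocyte sum was 1164 CPM in operated BL6 replicate 4 against 258 to 354 CPM in the other operated BL6 samples and 80.5 to 115 CPM in unoperated BL6. Comp, a cartilage and tendon matrix protein, rose by 4.29 in BL6 (adjusted p = 0.000139) and 2.04 in MRL (adjusted p = 0.0208). Schwann cell markers rose in 6 of 6 cases in BL6 and 5 of 6 in MRL, with medians of 1.76 and 1.08, and the MRL count was 2 without unoperated MRL replicate 2 or 3 or operated MRL replicate 3, and 3 without operated MRL replicate 1. S100b, a calcium-binding protein of glia, rose by 2.29 in BL6 (adjusted p = 7.20e-05) and 1.24 in MRL (adjusted p = 0.00906).

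Of the leukocyte and macrophage markers 8 of 18 were measured, and 5 rose in BL6. In MRL 0 were called by edgeR's quasi-likelihood test, 0 at an unadjusted p under 0.05, and 0 by DESeq2 or limma voom; without unoperated MRL replicate 1, whose sum was 401 CPM, 1 rose. Their sum was 39.7 to 160.1 CPM in unoperated and 97.9 to 672 CPM in operated BL6, and 80.9 to 401 and 149 to 288 CPM in MRL. The highest sum, 672 CPM, was again in operated BL6 replicate 4. The complement genes C1qb and C1qa, made by macrophages, rose by 2.29 (adjusted p = 0.00649) and 2.27 (adjusted p = 0.00576) in BL6, the lysosomal marker Cd68 by 2.01 (adjusted p = 0.00312) and the receptor Csf1r by 1.87 (adjusted p = 0.00574). The T cell markers Cd3e, Cd3d, Cd4 and Cd8a, which bear on Thy1, were not analysed here. Interferon-inducible genes, which bear on the Ly6 genes, rose in 13 of 16 cases in BL6 and 15 of 16 in MRL, with medians of 0.98 and 0.96. For MRL against BL6, 4 of 16 were called lower and none higher, both among unoperated and among operated samples, with medians of -0.53 and -0.49. Over all genes tested, 10.4% and 12.9% were called in either direction there. Bst2 (tetherin), Ifitm3 and Isg15 rose by 1.94 (adjusted p = 3.84e-05), 1.81 (adjusted p = 1.87e-05) and 1.68 (adjusted p = 0.00264) in BL6. In MRL they rose by 1.82 (adjusted p = 0.000658), 1.29 (adjusted p = 0.000955) and 1.55 (adjusted p = 0.0105). Ifi44 rose by 2.33 in MRL (adjusted p = 0.00268) and was at 0.92 in BL6 (adjusted p = 0.0911).

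**Figure D4:**
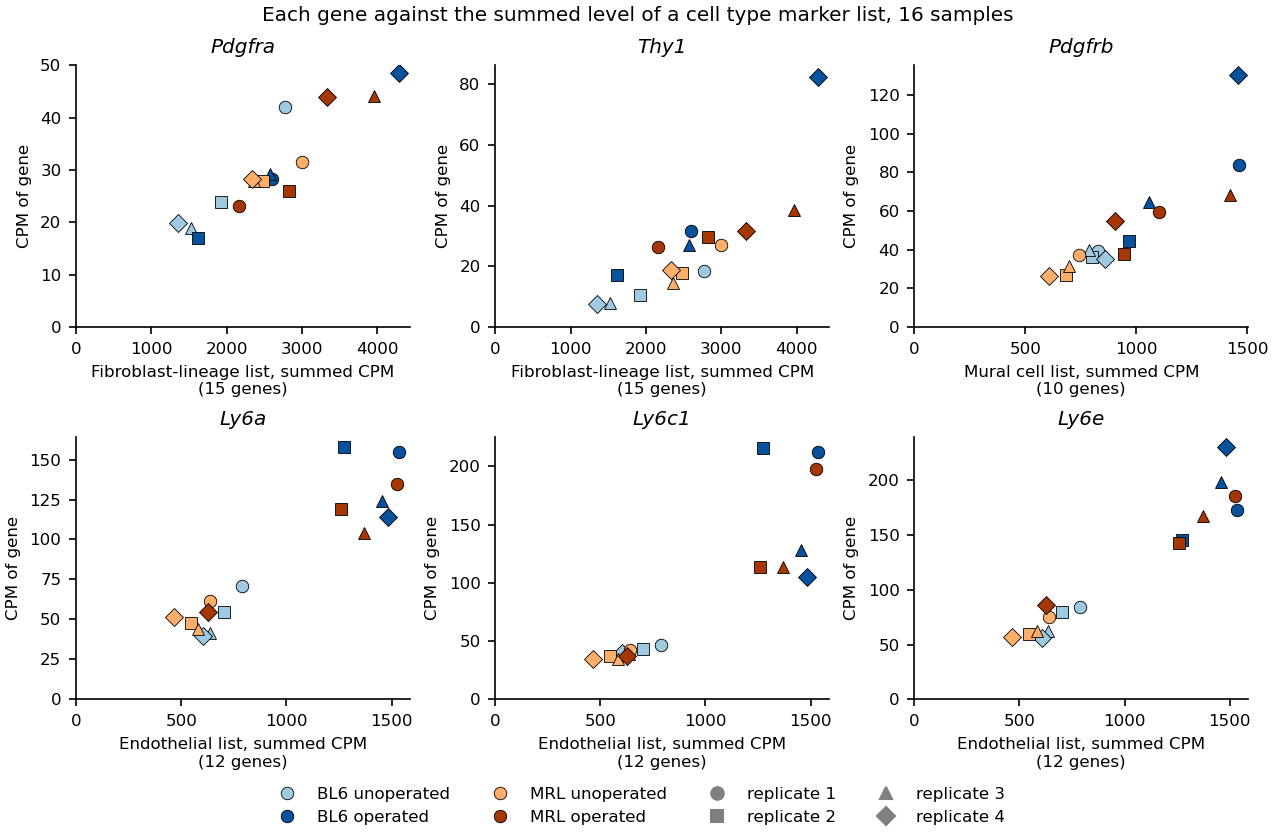
CPM of each gene (vertical) against the summed CPM of a marker list (horizontal) in 16 samples, colored by group and shaped by replicate; which list stands beside which gene was chosen after values had been seen. Ly6a, Ly6c1 and the endothelial sum place operated MRL replicate 4 among the unoperated samples and the other operated samples above them, while Ly6e in that sample, 85.9 CPM, is just above the highest unoperated one, 83.9 CPM; Pdgfra and the fibroblast-lineage sum do not separate the groups.

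Within groups, 2 pairs among the 6 genes varied together by both Pearson's and Spearman's correlation after adjustment. Correlations used deviations of log2 CPM from the group means over 16 samples, with two-sided exact permutation of samples within groups and Benjamini-Hochberg adjustment over 15 gene pairs. Pdgfra and Thy1 had Pearson's r = 0.873 (permutation p = 0.000109, adjusted 0.000814) and Spearman's rho = 0.797 (permutation p = 0.000359, adjusted 0.00269). Without the 2 samples farthest from the median of Pdgfra r was 0.764. Ly6a and Ly6c1 had r = 0.871 (permutation p = 6.63e-05, adjusted 0.000814) and rho = 0.832 (permutation p = 7.23e-05, adjusted 0.00109), with r = 0.831 without the 2 farthest samples; these genes share windows of sequence. Pdgfrb and Thy1 had r = 0.751 (permutation p = 0.00901, adjusted 0.0451) and rho = 0.532 (permutation p = 0.0558, adjusted 0.190), and r fell to 0.347 without the 2 farthest samples, so that relation rests on them. The other 12 pairs did not pass the adjustment, and Pdgfra with Ly6c1 had the lowest value, r = -0.504 (permutation p = 0.118, adjusted 0.222).

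The genes most like each of the 6 were taken as those with the highest Pearson's r of log2 CPM over the 16 samples, among 9621 genes with a mean of 5 CPM or more, as a description that includes the differences between groups and shares libraries and depth. The 6 genes themselves and genes with predicted-gene, Riken or accession-style names were left out of these 9621. For Pdgfra they were Ntn1 (r = 0.937) and Scara5 (0.926), and for Pdgfrb Nisch (0.960) and Pkd1 (0.957). Thy1 was closest to Pdpn (0.981) and Il13ra1 (0.976). Ly6a was closest to mt-Rnr1 (0.984) and Papss2 (0.967), Ly6c1 to Kank3 (0.987) and Gpihbp1 (0.986), and Ly6e to Egfl7 (0.987) and Tm4sf1 (0.986). The gene mt-Rnr1 is one of the mitochondrially encoded genes, whose share of counts varied between samples. Its r with Ly6a within groups was 0.952, and the cause was not tested.

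In the authors' deposited table of comparisons the surgery calls at a false discovery rate under 0.05 for 5 genes matched those above, and Thy1 in MRL differed. That table gave Thy1 in MRL a log2 fold change of 1.02 with a false discovery rate of 0.00689, where the fit above gave 0.69 and did not call it. For Pdgfra it gave 0.03 in BL6 (false discovery rate 0.936) and 0.39 in MRL (false discovery rate 0.249). Sizes differed too. For Pdgfrb it gave 0.85 in BL6 and 1.04 in MRL, the reverse order of the 1.10 and 0.85 above. For Thy1 in BL6 it gave 1.31, where the fit above gave 1.83. For Thy1 in MRL against BL6 among operated samples it gave 0.19, where the fit above gave -0.33. The cause was not tested. No strain comparison of the 6 genes in the authors' deposited table had a false discovery rate under 0.05, and the lowest was 0.137, for Pdgfrb among unoperated samples.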

How the data were processed

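Gene counts of 16 samples were used as deposited by the authors, whole numbers per gene with no normalization. The submitters' processing notes name FastQC, STAR, edgeR and the mm10 build, without versions. The counting program, annotation and use of strand are not given in the sources used here. A second table deposited by the authors gives log2 fold changes, p-values and false discovery rates, per the file headers.

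Groups and replicate numbers came from the labels. R 4.3.3 with edgeR 4.0.16 was run on all 16 samples: TMM scaling, filterByExpr at a minimum count of 10 (11709 genes kept, 1 removed), 1 mean per group, quasi-likelihood tests of 5 comparisons and Benjamini-Hochberg adjustment over all genes tested. The SE is the log2 fold change divided by the root of F, and 95% intervals use 12 residual degrees of freedom; they are approximate and unadjusted. CPM is TMM-scaled, and log2 CPM used a prior count of 2. A floor of 3 counts was 0.0689 to 0.123 CPM in these libraries and covers counting error only. Coordinates, exon lengths and sequences came from GENCODE M21. The scripts were tested on simulated data. DESeq2 1.42.0 and limma 3.58.1 voom, other scalings, filters, sample sets, the replicate block and leaving out each replicate were alternatives.

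The 6 genes and the gene lists were chosen with earlier results of these data known. By the naming rule, the text names the PDGF ligands and cofactors, the measured Ly6 family, from 1 to 4 of the called genes with the largest changes with surgery of each other list discussed, and the 2 genes most like each of the 6. A gene that the rule selects is not reported here. Pecam1, Cdh5, Flt1, Fabp4, Smoc2, Dpp4, Gsn, Dcn and Rgs5 were picked outside it after values were seen. Replicates of a group differed by more than sampling noise, so all were counted.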

Additional observations from a re-analysis of the deposited data

Results flagged for a closer look

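In unoperated MRL, replicate 1 held 31.5 CPM of Pdgfra, and the other 3 samples of that group lay between 27.8 and 28.3 CPM, so that it stood apart from a narrow group. The gap to the nearest sample was 0.880 of the group's range, above Dixon's 95% critical value for 4 samples. Among the 24 groups of 4 samples tested (6 genes in 4 groups) this was the only one, and chance flags about 1 in 20.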

How the results depend on the processing

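Of the values of the 6 genes recomputed under alternatives, 527 kept their direction and their side of the threshold, 1 lost its call, 2 gained one and 22 changed sign; none of those 22 was called. The 5 calls in BL6 held under every alternative run. In MRL, Pdgfrb was at 0.74 (adjusted p = 0.0503) without operated MRL replicate 3, and Thy1 was called in the fit to the MRL groups alone. Pdgfra ranged from -0.079 to 0.56 with surgery in BL6 on leaving out each replicate. Its interaction was -0.11 with library totals, -0.032 with voom and -0.0087 at a minimum mean of 5 CPM, and -0.31 to 0.33 on leaving out each replicate, where that of Pdgfrb ran from -0.45 to 0.090. In unoperated samples the strain difference of Ly6a was 0.11 with library totals, 0.0085 with voom, 0.023 with the replicate block and -0.13 to 0.16 on leaving out each replicate. In operated samples the strain difference ran from -0.044 to 0.47 for Pdgfra and from -0.58 to 0.33 for Thy1, and 0 to 1 of the 6 genes were called. Over all genes, the interaction called 29 genes, 14 with library totals, 250 with DESeq2, 2 with the replicate block and 1 to 69 on leaving out each replicate (69 without operated BL6 replicate 2). Surgery in MRL called 5272 genes, and 3490 to 6145 on leaving out each replicate, lowest without operated MRL replicate 3. The strain comparison called 1216 genes unoperated and 2438 with only the groups compared, and 1507 operated and 575 with only those groups. The cause was not tested. Library totals moved the median of all genes to 0.18 for surgery in BL6 and to 0.15 for the unoperated strain comparison. Same-numbered samples had mean correlations of deviations of -0.141 across surgery in BL6, 0.0920 across surgery in MRL, and 0.160 and 0.165 across strains unoperated and operated, with 1, 3, 3 and 3 of 4 pairs over 0.1. Not every pair passed 0.1 and the labels do not say that numbers pair samples, so they were not taken as paired; own numbers correlated best for 0, 2, 2 and 1 of 4. With the replicate block the counts of the 6 genes called stayed at 5 and 4 with surgery and 0 in the other comparisons. A fit with only the groups compared was not possible for the interaction, which needs all groups. Depth did not limit these genes, whose lowest level was 7.50 CPM.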
